A study of Mus musculus with 30 samples.

Results

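Kidney and pancreas from mice labelled as lacking p53 were compared after a week of reprogramming factor induction, to see which genes of each tissue's identity were still expressed and which states were found in both. The comparison holds 10 of the 30 libraries of the series, chosen by label alone: 5 kidney libraries whose genotype is given as i4F_p53_KO and 5 pancreas libraries whose genotype is given as p53_KO. All were C57BL/6 mice whose drinking water carried doxycycline at 0.2 mg/ml over 7 days, with 5 mice of each genotype. In i4F mice doxycycline switches on a cassette of the 4 reprogramming factors Oct4 (gene symbol Pou5f1), Sox2, Klf4 and Myc. The pancreas label does not name the cassette, although all 4 factors were measured there. As a background, 5 kidney and 5 pancreas libraries labelled i4F, with no deletion named and the same doxycycline course, were measured the same way. Whole tissue was used, so a lower value can mean fewer cells of a type or less RNA per cell, and these cannot be told apart. Each tissue came in its own table, so tissue and table cannot be told apart either. The labels do not say whether a kidney and a pancreas library came from the same mouse, and the p-values measure the spread between these libraries.

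The kidney is built mainly of tubules. Its proximal tubule reabsorbs glucose, phosphate and amino acids and runs on fatty acid oxidation, and the loop of Henle, the distal tubule and the collecting duct then adjust salt and water. The exocrine pancreas is built mainly of acinar cells, which make digestive enzymes under the transcription factors Ptf1a, Rbpjl and Nr5a2, drained by ducts marked by keratins such as Krt19. Forced expression of the 4 factors in a living mouse is known to cause loss of tissue identity, abnormal growth and inflammation, and p53, a transcription factor that halts the cell cycle or kills damaged cells, is known to oppose reprogramming.

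The values are FPKM as the authors deposited them, that is read fragments normalized to transcript length and library depth. A gene was tested where it reached 1 FPKM in at least 5 of the 10 libraries, which kept 12580 genes, and called where limma's adjusted p on log2(FPKM + 1) was under 0.05. Because a few acinar transcripts can fill a pancreas library, each comparison was also made after median-of-ratios scaling, which sets the libraries to a common level over their shared genes. Log2 differences below are kidney minus pancreas, as deposited, unless they are called scaled. The scaling factors ran from 0.915 to 1.20 in kidney and from 0.474 to 1.44 in pancreas. The median SD over the 5 pancreas libraries was 0.56 log2 units as deposited and 0.24 after scaling, against 0.26 and 0.23 in kidney. The depth behind single genes is unknown, since no counts were used.

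Trp53, the gene for p53, measured 10.1, 5.27, 4.90, 7.11 and 7.77 FPKM in the 5 kidneys, below all 5 i4F kidneys at 14.8 to 20.3 FPKM. Its values in the pancreas labelled p53 KO were 16.4, 19.2, 10.7, 6.65 and 24.8 FPKM, against 1.64 to 6.99 FPKM in i4F pancreas. The kidney values were thus on the side the label predicts. As deposited the pancreas values were not, so "labelled p53 KO" is kept for the pancreas throughout. As deposited, however, 86.3% of all 13049 genes were called higher in pancreas labelled p53 KO than in i4F pancreas, against 30.1% after scaling. The scaled change of Trp53 in pancreas is not given here, so its direction against i4F is left undecided. The labels do not say which part of the gene is deleted, and reads from an undeleted part would count as FPKM. The tissue difference of Trp53, -0.96 ± 0.33 (SE, limma adjusted p = 0.031), did not stay under the threshold when single libraries were left out, with adjusted p from 0.0587 to 0.0846 for 3 kidney (replicates 2, 3 and 4) and 3 pancreas (replicates 1, 2 and 5) libraries.

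Of the 12580 genes, 5466 were called, or 43.4%, with 3257 higher in kidney (25.9%) and 2209 higher in pancreas (17.6%). After scaling 8177 were called (65%), 4331 higher in kidney (34.4%) and 3846 higher in pancreas (30.6%). The balance as deposited turned without pancreas replicate 4, with 3258 and 3463, and with array weights, with 3349 and 4557. The same direction was called in both fits for 5398 genes. In 2974 genes (23.6%) all 5 kidneys lay above all 5 pancreas libraries as deposited, and in 1201 (9.55%) all lay below. After scaling the counts were 3477 (27.6%) above and 2972 (23.6%) below. A gene was counted as of like level where the 95% interval of its difference lay within 1 log2 unit of zero and its mean was at least 1 FPKM in both tissues. By that measure 4084 genes (32.5%) were alike as deposited and 5957 (47.4%) after scaling, 3985 of them in both. Spearman's rank correlation between a kidney and a pancreas library over 13049 genes, given as a description, was 0.558 to 0.672 over the 25 pairs with a median of 0.603, below the medians of 0.943 among the kidneys and 0.938 among the pancreas libraries.

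Genes of the kidney tubule were high in kidney and mostly near 0 in pancreas. All 35 listed proximal tubule genes were tested, but 19 of them reached 1 FPKM in no pancreas library and so passed the filter through kidney alone, where a difference is built in. All were higher in kidney in both fits, with a median difference of 6.90, against a median of 0.09 over all tested genes. In i4F mice the scaled median of the same list was 6.55, against 6.84 in the groups labelled p53 KO. As a share of summed FPKM the list took up 2.57, 9.80, 10.1, 4.09 and 2.73 percent in the kidneys, against 11.4, 15.3, 17.0, 6.43 and 8.48 percent in i4F kidney. The mean was lower in p53 KO, at 5.85 against 11.7 percent, and the ranges overlapped. Slc34a1, the phosphate transporter of the proximal tubule (GENCODE M21 on GRCm38, chr13:55398187-55415592, plus strand), measured 656, 1491, 1912, 968 and 1003 FPKM in the kidneys and 0, 0, 1.25, 0.681 and 0.923 FPKM in the pancreas libraries. The difference was 9.57 ± 0.33 (SE, limma adjusted p = 1.65e-10). Miox, a kidney enzyme that breaks down inositol, measured 434, 1414, 1542, 639 and 1221 FPKM against 0.0793, 0.0458, 1.17, 0.981 and 0.850 FPKM. In both genes every kidney far exceeded every pancreas library, and the lowest kidney value came from replicate 1. Kap, an androgen-regulated secreted protein of the tubule, had the largest kidney excess among genes called in both fits without overlap, 10.90 ± 0.96 (SE), from 4889.8, 32328, 34631, 11455 and 3889 FPKM in kidney to 0, 0.298, 24.3, 16.7 and 15.1 FPKM in pancreas. Its kidney values were widely spread, with replicates 1 and 5 lowest. Slc27a2, a fatty acid transporter and acyl-CoA synthetase, was at 649.7 to 1381 FPKM in kidney and 0.120 to 1.06 FPKM in pancreas.

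The promoters of Slc34a1 and Miox are shown because they hold GTTAAT, a homeobox factor motif, and because tubule genes were high together in kidney. The 250 bases before each RefSeq start on GRCm38.p6 were searched on both strands, and the capitals mark GTTAAT or its reverse complement. The Slc34a1 window is chr13:55399398-55399647 on the plus strand, at a start site inside the longer GENCODE gene span, with hits beginning 89 and 61 bases before the start. The Miox window is chr15:89334223-89334472 on the plus strand, with 1 hit at 142 bases.
Slc34a1: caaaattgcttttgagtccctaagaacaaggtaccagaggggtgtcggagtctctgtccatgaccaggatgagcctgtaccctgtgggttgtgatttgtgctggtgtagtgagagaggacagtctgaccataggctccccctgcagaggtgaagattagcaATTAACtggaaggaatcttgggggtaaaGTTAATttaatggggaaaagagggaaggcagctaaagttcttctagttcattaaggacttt
Miox: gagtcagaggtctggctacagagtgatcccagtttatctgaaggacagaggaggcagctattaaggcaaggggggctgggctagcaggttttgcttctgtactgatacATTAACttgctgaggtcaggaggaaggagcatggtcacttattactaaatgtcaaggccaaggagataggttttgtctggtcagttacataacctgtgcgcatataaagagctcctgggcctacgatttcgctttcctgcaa
GTTAAT was found in 7 of 35 promoters (20%) of the proximal tubule genes, which cover 28 of the genes, and in 6.43% of all 32851 RefSeq promoters. A match describes these letters and shows no binding.

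**Figure D1:**
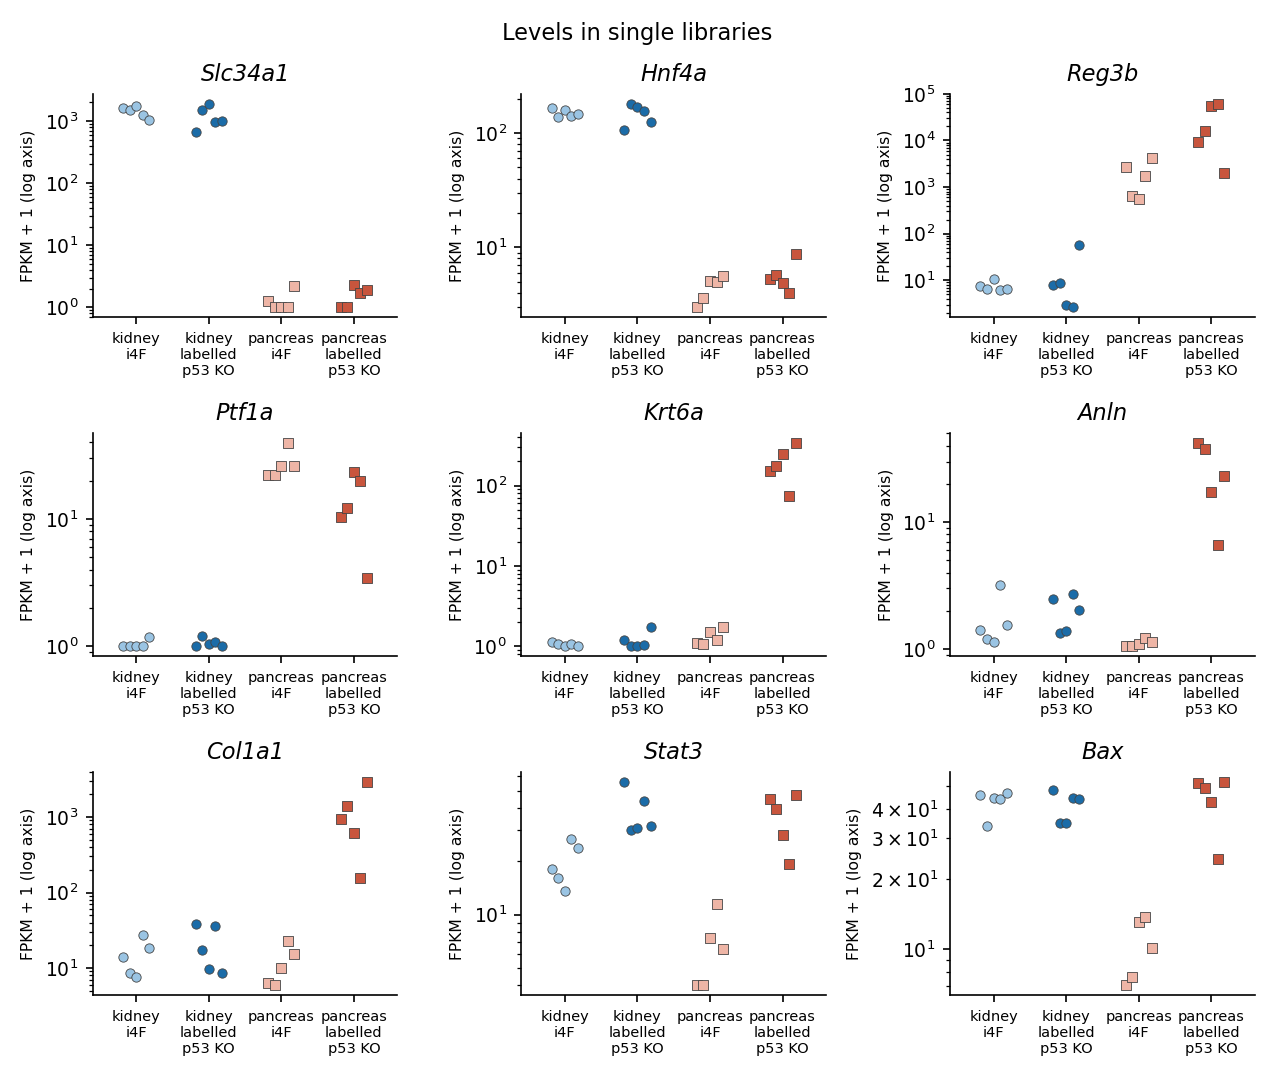
Levels of 9 genes on a log axis of FPKM + 1 in the 4 groups of 5 libraries, each point a library. Slc34a1 and Hnf4a are high in both kidney groups, Reg3b and Ptf1a in both pancreas groups, Krt6a, Anln and Col1a1 are highest in pancreas labelled p53 KO, and Stat3 and Bax overlap between the tissues there.

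The other nephron segments and the factors that define them followed. Of 14 loop of Henle genes 13 were higher in kidney and 1 in pancreas, and of 21 distal tubule and collecting duct genes 20 were higher in kidney. However, 8 of the 14 and 14 of the 21 reached 1 FPKM in no pancreas library. Those passed the filter through kidney alone, where a difference is built in. Umod, the uromodulin of the loop, measured 1128, 1062, 505, 1061 and 1518 FPKM in kidney and 0.212, 0.280, 2.26, 1.85 and 1.12 FPKM in pancreas. Slc12a3, the salt transporter of the distal tubule, was at 69.3 to 321 FPKM in kidney and under 1 FPKM in every pancreas library (0.0139 to 0.191). Aqp2, the water channel of the collecting duct, was at 47.5 to 172 against 0.0997 to 0.668 FPKM. The exception in the loop list was Ptger3, a prostaglandin receptor, at 10.8, 14.6, 4.47, 12.1 and 10.5 FPKM in kidney and 27.3, 27.5, 69.2, 89.3 and 22.8 FPKM in pancreas, -1.93 ± 0.41 (SE). In glomerulus genes, 8 of 13 were higher in kidney and none in pancreas as deposited, and 9 and 2 after scaling. Of the 13, 3 reached 1 FPKM in no pancreas library. Over all tested genes, 25.9% were higher in kidney and 17.6% in pancreas as deposited. Ptger3 was chosen for the text after its values were seen.

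All 19 kidney lineage transcription factors tested were higher in kidney in both fits, with a median difference of 3.15. Of the 19, 10 reached 1 FPKM in no pancreas library, so for those a difference is built in by the filter. Hnf4a, the factor that drives proximal tubule genes, measured 106, 179.5, 167, 155 and 123 FPKM in kidney and 4.30, 4.77, 3.88, 2.95 and 7.84 FPKM in pancreas, 4.71 ± 0.26 (SE, limma adjusted p = 6.68e-09). Pax2 and Pax8 set up the nephron in the embryo. Pax2 was at 7.02 to 9.19 FPKM in kidney and 0 to 0.0408 FPKM in pancreas, and Pax8 at 23.6 to 65.4 and 0.0687 to 2.96 FPKM. Pax8 was at or near 0 in i4F pancreas (0 to 0.0378 FPKM). Emx1 and Hoxd8, homeobox genes of the nephron, differed by 4.70 ± 0.30 and 4.53 ± 0.28 (SE). Pax2 and Pax8 were named after their values were seen.

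The mitochondrial genes on which the tubule depends were higher in kidney too. All 34 oxidative phosphorylation subunits were higher in kidney in both fits, with a median difference of 1.69. Sdha, the catalytic subunit of complex II, measured 181, 241, 231, 214 and 190.3 FPKM in kidney and 63.4, 60.4, 39.7, 25.2 and 63.6 FPKM in pancreas, 2.12 ± 0.28 (SE). Of 23 fatty acid oxidation and ketone genes, 21 were higher in kidney as deposited, 22 after scaling, and none was higher in pancreas. Of the 23, 2 reached 1 FPKM in no pancreas library. Ppara, the nuclear receptor that switches these genes on, was at 15.1 to 20.2 FPKM in kidney and 0.114 to 0.347 FPKM in pancreas. Ehhadh, a peroxisomal enzyme of the same route, was at 59.3 to 172 and 1.85 to 2.62 FPKM.

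Acinar enzymes were higher in pancreas than in kidney, but unevenly between libraries and below the i4F level. The 38 acinar enzymes and secretory proteins took up 9.37, 19.9, 37.6, 54.4 and 1.34 percent of summed FPKM in the pancreas libraries and 0.496, 0.944, 0.942, 0.805 and 0.656 percent in the kidneys. The means were 24.5% ± 21.5 and 0.769% ± 0.193 (SD, n = 5), a difference of -23.8 percentage points with an exact two-sided permutation p of 0.00794, the smallest that 5 against 5 allows. With any 1 kidney left out the exact permutation p was 0.0556, and with any 1 pancreas library left out 0.00794. The groups did not overlap, yet the pancreas share was widely spread, with replicate 4 highest and replicate 5 lowest. In i4F pancreas the acinar share was 75.1, 80.7, 76.2, 70.3 and 67.2 percent (mean 73.9), above all 5 pancreas libraries labelled p53 KO. For 72 kidney tubule genes the shares were 3.12, 10.6, 10.7, 4.71 and 4.32 percent in kidney and 0.238, 0.29, 0.614, 0.721 and 0.0439 percent in pancreas, again without overlap and with the same exact p. The difference in means was 6.31 points. Klk1, a protease made by both kidney and pancreas, sits in the tubule list and was not called between the tissues, with 457, 1124, 1135, 789 and 3658 FPKM in kidney and 1152, 1549, 4498, 5801 and 69.0 FPKM in pancreas. It was named after its values were seen.

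**Figure D2:**
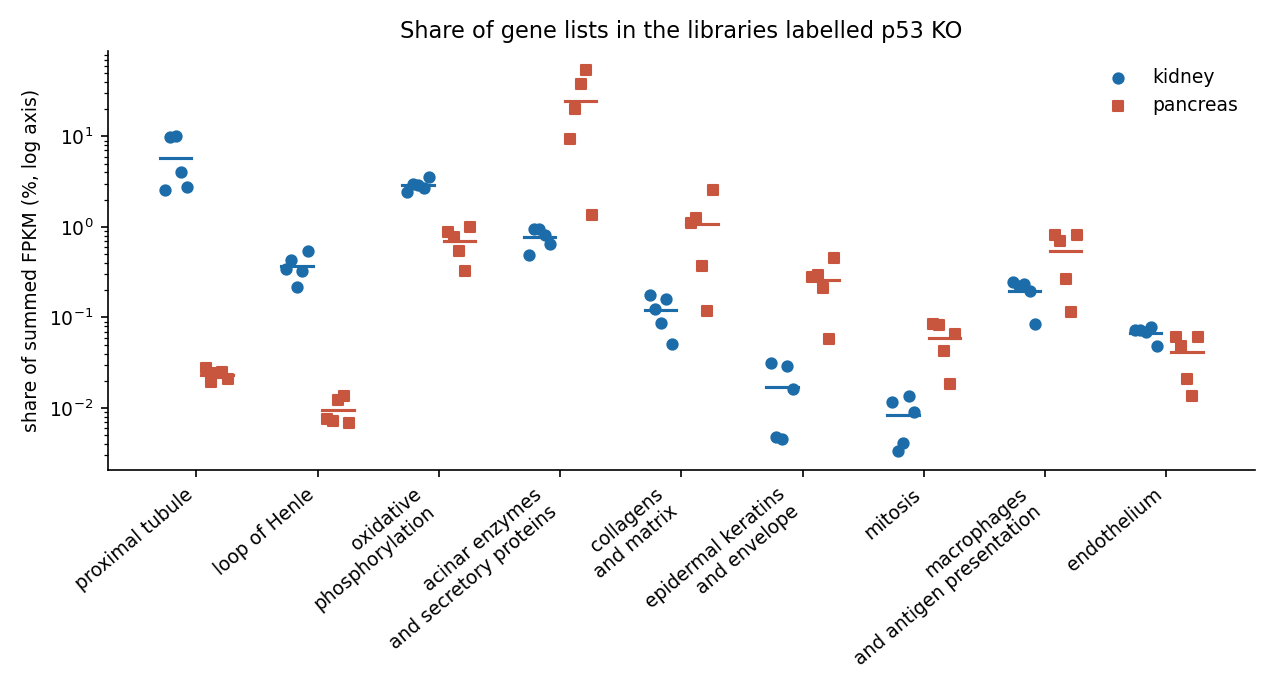
Share of summed FPKM, in percent on a log axis, taken by 9 gene lists in the 5 kidney and 5 pancreas libraries labelled p53 KO, with points for libraries and lines for means. The acinar list runs from 1.34% to 54.4% over the pancreas libraries and stays at or below 0.944% in kidney.

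Of 32 acinar genes tested, 29 were higher in pancreas as deposited and 27 after scaling, and none was higher in kidney. The median difference was -5.69. Among list members called in both fits, the largest were Dmbt1 (-7.74 as deposited), Try5 and Reg1. Larger pancreas excesses were found outside the list, in other regenerating proteins, lectins secreted by stressed acinar cells. Reg2, Reg3a, Reg3b and Reg3g are not in the list or in its share. Reg3b measured 9457, 15637, 54302, 61518 and 1969 FPKM in pancreas and 6.93, 7.79, 1.94, 1.66 and 55.7 FPKM in kidney, -10.96 ± 0.96 (SE, limma adjusted p = 7.63e-07). Reg3g measured 977, 2932, 9371, 9797 and 161 FPKM in pancreas and 1.21, 0.430, 0.131, 1.98 and 9.74 FPKM in kidney. Both were highest in pancreas replicates 3 and 4, the libraries with the highest acinar share, and lowest in replicate 5. In i4F pancreas Reg3b was at 561 to 4108 FPKM and Reg3g at 29.0 to 407 FPKM. Reg1, Reg2 and Reg3a differed by -7.56 ± 0.89, -8.71 ± 0.94 and -9.58 ± 1.12 (SE). The Reg genes are near copies of each other, as are the trypsins with Try5 (-7.60 ± 0.97), so how reads were divided within each family is uncertain.

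Reg3b and Reg3g both lie on chromosome 6, and their promoters are shown because the largest pancreas excesses were in this family. The windows are chr6:78370635-78370884 on the plus strand and chr6:78468875-78469124 on the minus strand, GRCm38.p6 from RefSeq, read 5′ to 3′, with TATAAA or its reverse complement in capitals.
Reg3b: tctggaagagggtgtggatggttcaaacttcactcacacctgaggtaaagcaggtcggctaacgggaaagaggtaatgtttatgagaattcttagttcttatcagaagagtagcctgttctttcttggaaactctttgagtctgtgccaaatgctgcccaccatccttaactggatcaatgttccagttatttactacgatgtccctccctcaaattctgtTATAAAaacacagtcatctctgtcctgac
Reg3g: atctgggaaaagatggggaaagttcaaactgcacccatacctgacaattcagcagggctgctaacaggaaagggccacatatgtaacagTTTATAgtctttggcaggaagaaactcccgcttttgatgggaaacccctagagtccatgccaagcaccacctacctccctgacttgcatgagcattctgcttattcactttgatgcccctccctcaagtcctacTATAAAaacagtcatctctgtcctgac
The TATAAA nearest the start begins 29 bases before it in Reg3b and 27 in Reg3g. TATAAA on either strand was found in 11 of 27 acinar promoters (40.7%, 26 genes) in 7 of 16 epidermal promoters (43.8%) and in 12.4% of all promoters. The E-box CAGCTG, which reads the same on both strands, was found in 6 of the 27 (22.2%), in 31.2% of the epidermal promoters and in 13.0% of all.

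The acinar transcription factors were all but absent from kidney. Ptf1a, the master factor of the acinar cell, measured 9.29, 11.2, 22.5, 18.8 and 2.41 FPKM in pancreas and 0, 0.194, 0.0389, 0.0691 and 0 FPKM in kidney, -3.44 ± 0.41 (SE). Rbpjl, its partner, measured 9.12, 13.7, 24.9, 28.4 and 1.84 FPKM against 0.0409, 0.161, 0.156, 0.193 and 0.0601 FPKM. Nr5a2, a nuclear receptor that works with them, measured 4.48, 3.78, 3.61, 4.38 and 1.88 FPKM against 0.0496, 0.102, 0, 0.0424 and 0.0163 FPKM. Every pancreas library exceeded every kidney for each of them, and all were lowest in pancreas replicate 5, the library with the lowest enzyme share. No kidney reached 1 FPKM for any of them, so they passed the filter through pancreas alone, where a difference is built in. In i4F pancreas Ptf1a was at 21.0 to 38.8 FPKM and Rbpjl at 40.7 to 70.2 FPKM. Of the whole list of 16 acinar transcription factor and secretory genes tested, 11 were higher in pancreas and 2 in kidney. In all, 5 of the 16 reached 1 FPKM in no kidney. Gata4, a factor of pancreas development, was steadier than the others at 22.9, 17.7, 20.9, 14.0 and 17.7 FPKM in pancreas and at most 0.103 FPKM in kidney. Nupr1, a stress-induced chromatin protein, was at 709 to 2491 FPKM in pancreas and 18.4 to 56.3 FPKM in kidney. Ptf1a, Rbpjl and Nr5a2 were named after their values were seen.

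The count of islet genes hung in part on the filter of 5 libraries. Of 13 tested, 7 were higher in pancreas and 3 in kidney as deposited, against 17.6% and 25.9% of all tested genes. Of the 13, 6 reached 1 FPKM in no kidney. With any 1 pancreas library left out, those could not pass the filter, so lower counts there follow in part from it. Without pancreas replicate 4, 2 of 7 tested were higher in pancreas and 3 in kidney, and without replicate 5, 1 and 4. The summed islet share differed by -0.0852 percentage points (exact permutation p = 0.167). Ins2, an insulin gene, measured 273, 43.6, 1078, 1601 and 22.2 FPKM in pancreas and 0, 2.88, 7.23, 4.39 and 0.984 FPKM in kidney. Iapp, the amylin secreted with insulin, measured 87.5, 8.26, 117, 101 and 12.4 FPKM in pancreas and was under 1 FPKM in every kidney. The kidney-higher member Slc2a2 is a glucose transporter that the proximal tubule also uses, at 52.2 to 65.4 FPKM in kidney and 0.0316 to 0.312 FPKM in pancreas.

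Most genes of the other tissue were at trace level. The 29 proximal tubule genes at 100 FPKM or more in kidney had a median level in the pancreas libraries of 0.019% to 0.118% of their kidney mean. The 21 acinar genes at 1000 FPKM or more in pancreas had a median of 0.119% and 0.183% of their pancreas mean in kidney replicates 1 and 5, and of 1.16% to 1.58% in replicates 2, 3 and 4. Among the i4F kidneys this median was 1.35% in replicate 5 and 0.0821% to 0.121% in the others. The i4F kidney replicate 5 was kept where p53 KO kidney replicates 2, 3 and 4 were left out. The highest single genes were Gatm, an enzyme of creatine synthesis that both tissues use, at 12.6% to 46.8% of its kidney mean in pancreas, and Spink3, a trypsin inhibitor, at 48% to 81.9% of its pancreas mean in kidney. Whether pancreas tissue reached kidney replicates 2, 3 and 4 was not tested. Without them, the tubule share difference was 3.34 points (exact permutation p = 0.0476), the acinar share difference was -23.97 points (exact permutation p = 0.143), and 2020 genes were called, against 5466. With 2 kidneys left, the filter of 5 libraries drops most genes that pancreas lacks, and 9 of the remaining 11 proximal tubule genes were higher in kidney. Of the pancreas-high lists described below, 22 of 25 mitosis, 10 of 14 epidermal and 24 of 31 collagen genes were still higher in pancreas, but 7 of 26 DNA replication and 3 of 18 AP-1 genes were, or 22 and 11 after scaling. Their median differences there were -0.92 and -1.22. Spink3, which like Gatm was named after its values were seen, was high in both tissues, with 2053, 1571, 1945, 2027 and 2681 FPKM in kidney and 1997, 2879.9, 4672, 6707 and 110.5 FPKM in pancreas. It was not called.

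Beside its own enzymes, the pancreas expressed keratins and other genes of ducts and squamous epithelium. Of 26 duct and metaplasia genes, 15 were higher in pancreas, 6 in kidney and 2 alike as deposited. Over all tested genes the shares were 17.6%, 25.9% and 32.5%. Of the 26, 2 reached 1 FPKM in pancreas alone and 1 in kidney alone. Their summed share did not follow that count, at 0.333 to 1.61 percent in pancreas and 0.350 to 2.73 percent in kidney (exact permutation p = 0.746). Krt19, the duct keratin, measured 796, 757, 737, 243 and 914 FPKM in pancreas and 6.96, 2.28, 1.78, 30.1 and 14.7 FPKM in kidney, -6.28 ± 0.61 (SE, limma adjusted p = 2.06e-06). In i4F pancreas it was at 8.06 to 41.1 FPKM. Tff1, a stomach mucus peptide, was at 182 to 1985 FPKM in pancreas and 2.12 to 6.35 FPKM in kidney, and Msln, the mesothelin of serous linings, at 22.2 to 489 and 0.579 to 5.16 FPKM. The simple epithelial keratins Krt8 and Krt18, named after their values were seen, were higher in pancreas as well, with differences of -3.20 ± 0.42 and -4.01 ± 0.49 (SE). Cldn6, a claudin of embryonic epithelium, was at 9.42 to 130.2 FPKM in pancreas and 0.877 to 1.66 FPKM in kidney.

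Of 16 epidermal keratin and cornified envelope genes tested, 12 were higher in pancreas in both fits, with a median difference of -4.19. The scaled median was -4.25, against -0.57 in i4F mice. Of the 16, 3 reached 1 FPKM in no kidney. Krt6a, a keratin of wounded epidermis, measured 149.5, 173, 248, 72.6 and 342 FPKM in pancreas and 0.193, 0, 0, 0.0480 and 0.712 FPKM in kidney, -7.23 ± 0.36 (SE). In i4F pancreas it was at 0.0540 to 0.758 FPKM. Krt16 and Krt17, its companions in wounded skin, differed by -6.77 ± 0.30 and -6.32 ± 0.59 (SE). Krt14, the basal keratin, measured 83.8, 152, 83.8, 30.4 and 245 FPKM in pancreas, while its usual partner Krt5 was at most 0.0761 FPKM there and was not tested. Krt13, a keratin of moist squamous linings, measured 194, 138, 310.2, 104 and 136 FPKM in pancreas and 3.65, 0.193, 2.18, 8.43 and 13.4 FPKM in kidney. Every pancreas library exceeded every kidney for Krt6a, Krt14 and Krt13. Sprr1a, a cornified envelope precursor, was also expressed in kidney, with 92.9, 1.60, 2.26, 58.7 and 1.69 FPKM in kidney and 22.1, 29.2, 34.0, 27.7 and 55.9 FPKM in pancreas, and it was not called as deposited. Evpl and Krt10, an envelope protein and a keratin of outer epidermis, were of like level, with Evpl at 4.37 to 9.76 FPKM in kidney and 1.70 to 13.3 FPKM in pancreas. Krt14, Krt5, Krt13 and Sprr1a were named after their values were seen, and keratins of 1 type resemble each other closely enough that reads may be shared.

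The Krt13 promoters are shown because the AP-1 motif, spelled TGANTCA and searched on both strands, was found in 7 of 16 promoters (43.8%, 15 genes) of the epidermal list and in 6.75% of all. The first window, chr11:100121567-100121816 on the minus strand, precedes the gene's start, and the second, chr11:100120578-100120827, precedes a start within the gene. Both are GRCm38.p6 from RefSeq with TGANTCA in capitals.
Krt13 first start: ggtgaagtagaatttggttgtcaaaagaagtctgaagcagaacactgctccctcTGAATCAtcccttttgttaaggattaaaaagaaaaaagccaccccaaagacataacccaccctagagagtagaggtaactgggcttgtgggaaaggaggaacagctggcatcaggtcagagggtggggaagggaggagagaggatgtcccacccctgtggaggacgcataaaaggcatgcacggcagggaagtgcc
Krt13 second start: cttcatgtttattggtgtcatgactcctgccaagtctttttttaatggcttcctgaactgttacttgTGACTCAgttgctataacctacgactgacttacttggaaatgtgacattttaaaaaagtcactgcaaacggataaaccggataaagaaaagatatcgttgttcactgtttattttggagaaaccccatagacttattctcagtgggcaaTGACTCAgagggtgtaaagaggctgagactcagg
The hit begins 196 bases before the first start, and the hits before the second begin at 183 and 34 bases. Of 18 AP-1 and immediate early genes tested, 12 were higher in pancreas as deposited, 16 after scaling, and none was higher in kidney. Over all tested genes, 17.6% were higher in pancreas as deposited and 30.6% after scaling. Of the 18, 1 reached 1 FPKM in no kidney. Fos measured 25.5, 20.3, 8.43, 2.68 and 23.1 FPKM in pancreas and 1.45, 0.499, 0.316, 1.31 and 1.49 FPKM in kidney. Fosl2, a slower member of the family, was at 8.72 to 46.9 and 2.90 to 9.97 FPKM, a call that was lost without kidney replicates 2, 3 and 4.

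Cell division genes were higher in pancreas, with few exceptions among those tested. All 25 mitosis genes were higher in pancreas in both fits, with a median difference of -2.33, and in i4F mice their scaled median was 0.05. Of the 25, 3 reached 1 FPKM in no kidney. Anln, the anillin of the cleavage furrow, measured 41.3, 36.8, 16.2, 5.60 and 22.1 FPKM in pancreas and 1.47, 0.341, 0.399, 1.70 and 1.01 FPKM in kidney, -3.47 ± 0.45 (SE, limma adjusted p = 2.97e-05). In i4F pancreas it was at 0.0528 to 0.230 FPKM. Ube2c and Ccnb1, which drive the entry into and exit from mitosis, differed by -3.20 ± 0.36 and -3.19 ± 0.37 (SE). Replicates 1 and 4 were the highest of the kidneys for Anln and Ccnb1, yet stayed under every pancreas library. Of 26 DNA replication genes 23 were higher in pancreas as deposited and 25 after scaling. Of the 26, 2 reached 1 FPKM in no kidney. Rrm2, a subunit of ribonucleotide reductase, was at 10.8 to 32.9 FPKM in pancreas and 1.57 to 9.88 FPKM in kidney. Of these 26 genes, 1 was higher in kidney.

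Matrix and macrophage genes were higher in pancreas too. Of 31 collagen and matrix genes 27 were higher in pancreas in both fits and 1 in kidney, with a median of -3.07. Col1a1, the main collagen of scar, measured 943, 1417, 610.1, 156 and 2936 FPKM in pancreas and 37.5, 16.1, 8.80, 34.5 and 7.59 FPKM in kidney, -5.50 ± 0.68 (SE). It was highest in pancreas replicate 5, which had the lowest acinar share, and lowest in replicate 4, which had the highest. Col3a1 and Postn, the periostin of active fibroblasts, differed by -5.20 ± 0.66 and -5.43 ± 0.51 (SE). Timp1, an inhibitor of matrix proteases, was at 144 to 828 FPKM in pancreas and 2.06 to 59.0 FPKM in kidney, and Mmp2, such a protease, at 12.1 to 203 and 1.02 to 2.04 FPKM. Of 23 macrophage and antigen presentation genes 17 were higher in pancreas and 4 in kidney. Over all tested genes, 17.6% were higher in pancreas and 25.9% in kidney as deposited. Lyz2, the macrophage lysozyme, measured 1461, 1450, 566, 245 and 1823 FPKM in pancreas and 65.3, 80.1, 31.4, 26.2 and 17.9 FPKM in kidney. Cd68, a lysosomal marker, was at 28.9 to 119 and 3.22 to 12.9 FPKM, and Ccl2, the chemokine that calls monocytes, at 21.1 to 91.5 and 1.42 to 7.22 FPKM. The macrophage list summed to 0.114 to 0.825 percent of FPKM in the pancreas libraries and 0.0851 to 0.245 percent in the kidneys, and the fibroblast list, with 7 of 19 tested genes higher in pancreas, to 0.0282 to 0.285 and 0.0420 to 0.120 percent. Their part in the matrix difference was not tested.

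**Figure D3:**
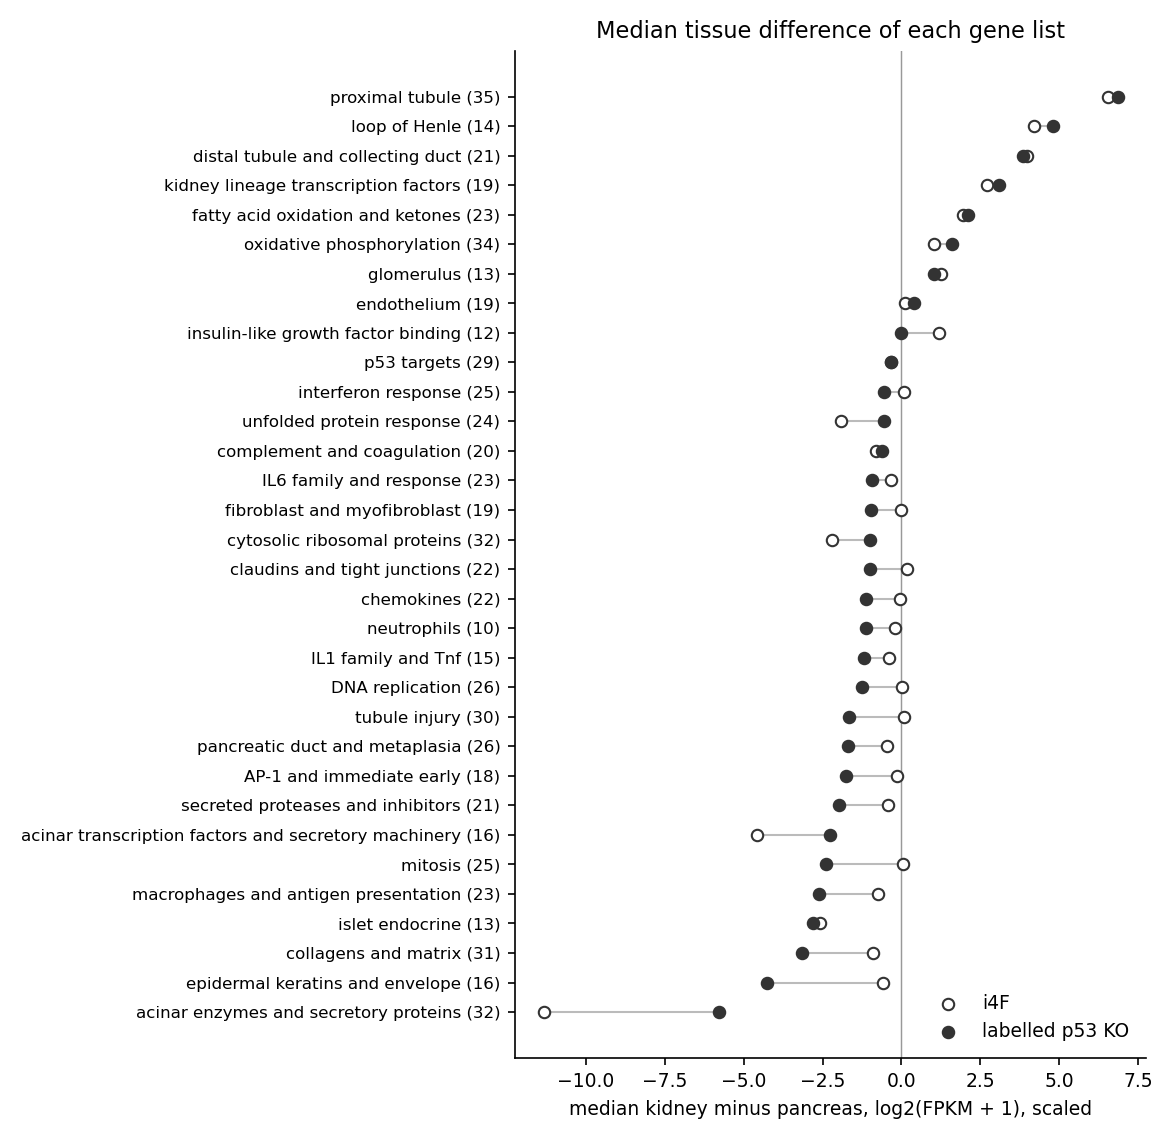
Scaled median difference (kidney minus pancreas, log2) of each list with at least 10 tested genes, with filled points for the groups labelled p53 KO and open points for the i4F groups. The tubule and kidney factor lists lie far to the kidney side in both, and the glomerulus list less so, at 1.05 and at 1.24 in i4F. The mitosis, epidermal and collagen medians lie at -2.40, -4.25 and -3.15 in the groups labelled p53 KO and at 0.05, -0.57 and -0.90 in i4F. Filled points come from the fit of 10 libraries and open points from that of 20, which tested more genes of some lists.

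Most tubule injury genes that were called were higher in pancreas. Of 30 tested, 5 were higher in kidney and 16 in pancreas as deposited, against 25.9% and 17.6% of all tested genes. Their summed share did not separate the tissues (exact permutation p = 0.532). Of the 30, 3 reached 1 FPKM in no pancreas library. Fgg and Fga, fibrinogen chains that injured tubules make, were among those, so their difference is built in by the filter. Fgg measured 417, 16.3, 76.2, 193 and 100.1 FPKM in kidney and 0.203, 0.0722, 0.321, 0.167 and 0.331 FPKM in pancreas, and Fga 258, 13.2, 39.2, 102 and 62.5 and 0.110, 0.143, 0.194, 0.0977 and 0.160 FPKM. Replicates 1 and 4 were highest for both, and Fgg was at 5.23 to 17.7 FPKM in i4F kidney. Lcn2, a protein secreted by injured tubules and by neutrophils, measured 561, 29.1, 15.2, 268 and 80.3 FPKM in kidney and 1489.6, 778, 326, 149 and 345 FPKM in pancreas, so the groups overlapped. Its call, with limma adjusted p = 0.0468, was lost when any of 7 libraries was left out (kidney 2, 3 or 5, pancreas 1, 2, 3 or 5), where adjusted p ran from 0.0552 to 0.118. Havcr1, the tubule marker Kim-1, was high in 1 kidney only, at 422, 2.08, 0.791, 19.9 and 2.07 FPKM, and was not tested. It was named after its values were seen.

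All 4 reprogramming factors were higher in pancreas in both fits. Pou5f1 measured 80.3, 98.2, 40.7, 24.6 and 40.9 FPKM in pancreas and 15.7, 0.650, 3.48, 8.86 and 4.88 FPKM in kidney, -3.12 ± 0.55 (SE, limma adjusted p = 0.000412), and the groups did not overlap. Sox2 measured 25.0, 23.4, 12.1, 6.44 and 15.0 and 7.21, 0.216, 1.95, 3.32 and 1.43 FPKM, a difference of -2.33 ± 0.48. Klf4 and Myc, which both tissues also express from their own genes, differed by -2.10 ± 0.39 and -2.45 ± 0.49 (SE). Kidney replicate 1 had the highest value of the kidneys for all 4 and overlapped the lowest pancreas library for Sox2 and Myc. Nanog, a pluripotency gene outside the cassette, was at 0.196 to 4.14 FPKM in pancreas and 0.0673 to 0.702 FPKM in kidney, too low to be tested. In i4F libraries Pou5f1 was at 0 to 5.40 FPKM in kidney and 0 to 1.14 FPKM in pancreas. The factors thus differed between the tissues in the same libraries as the results above, and their part in them was not tested.

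The p53 target list was mixed. Of 29 targets 6 were higher in kidney, 9 in pancreas and 6 alike as deposited, and after scaling 8, 13 and 12. Over all tested genes, 25.9% were higher in kidney and 17.6% in pancreas as deposited, and 34.4% and 30.6% after scaling. The like-level counts lie below the 32.5% and 47.4% of all genes. Cdkn1a, the p21 cell cycle inhibitor, measured 69.5, 59.1, 56.7, 28.6 and 161 FPKM in pancreas and 11.2, 2.72, 2.49, 6.59 and 12.1 FPKM in kidney, -3.24 ± 0.48 (SE). Cdkn2a, the locus of the p16 and p19 inhibitors that act beside p53, measured 10.7, 5.33, 2.07, 0.496 and 14.3 FPKM in pancreas and 0.226, 0.261, 0.151, 0 and 0 FPKM in kidney, against 0 to 0.318 FPKM in i4F pancreas and 0 to 0.0782 FPKM in i4F kidney. Every pancreas library exceeded every kidney, but too few libraries reached 1 FPKM for the gene to be tested. Btg2, an antiproliferative target, and Plk2, a stress kinase, differed by -2.68 ± 0.30 and -2.47 ± 0.38 (SE), both higher in pancreas. Bax, a cell death effector, measured 47.0, 33.7, 33.8, 43.6 and 43.1 FPKM in kidney and 50.4, 48.2, 41.7, 23.4 and 51.3 FPKM in pancreas, with a 95% interval of -0.60 to 0.49 log2 units. Mdm2, which degrades p53, and Aen, a nuclease, had intervals of -0.75 to 0.60 and -0.92 to 0.12. The 3 genes fell within the like-level bounds in both fits, although as deposited their levels in i4F pancreas were lower, with Bax at 6.02 to 12.7 FPKM.

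Genes of like level were also found in the IL6, endothelial and unfolded protein response lists, at shares near or below the 32.5% of all genes as deposited and 47.4% after scaling. Stat3, the transcription factor that carries IL6 signals, measured 55.1, 28.9, 29.8, 42.7 and 30.6 FPKM in kidney and 44.0, 38.4, 27.1, 18.4 and 46.1 FPKM in pancreas, with an interval of -0.50 to 0.76. Of 23 IL6 family and response genes 1 was alike, 10 were higher in pancreas and 3 in kidney. Over all tested genes, 17.6% were higher in pancreas and 25.9% in kidney as deposited. Il6 itself was higher in pancreas, at 1.89 to 6.49 against 0 to 0.506 FPKM. No kidney reached 1 FPKM for Il6, so it passed the filter through pancreas alone, where a difference is built in. Of 19 endothelial genes 6 were alike as deposited and 9 after scaling. Pecam1, the platelet endothelial adhesion molecule, measured 20.2, 19.5, 18.2, 22.0 and 9.82 FPKM in kidney and 30.6, 21.7, 9.81, 9.18 and 27.0 FPKM in pancreas, and Esam and Sox18, an adhesion molecule and a factor of the same cells, had intervals of -0.81 to 0.47 and -0.52 to 1.00. Of the 19 endothelial genes, 4 were higher in kidney and 2 in pancreas as deposited. Emcn was at 21.6 to 40.8 FPKM in kidney and 4.83 to 24.3 FPKM in pancreas, so the ranges overlapped. Its call was lost without kidney replicates 2, 3 and 4. Lyve1, of lymphatic vessels and macrophages, was at 0.125 to 2.40 FPKM in kidney and 5.96 to 66.3 FPKM in pancreas. Of 24 unfolded protein response genes 8 were alike. Calr, the chaperone calreticulin, had an interval of -0.54 to 0.77 with overlapping values, and Pdia3 and Hsp90b1 had intervals of -0.89 to 0.62 and -0.86 to 0.54. In the interferon list 2 of 25 genes were alike as deposited and 8 after scaling. Without kidney replicates 2, 3 and 4, 1 of 29 p53 targets, 0 of 18 endothelial and 0 of 24 unfolded protein response genes were of like level as deposited, and 9, 9 and 2 after scaling. Without pancreas replicate 5, 2 endothelial genes were of like level as deposited. For 7 of 13 genes examined at like level, the interval passed the bound when at least 1 library was left out.

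Against the i4F libraries the tissue difference itself had changed. In i4F mice 11457 of 13049 genes (87.8%) differed between the tissues as deposited, 10990 higher in kidney (84.2%) and 467 in pancreas (3.58%). After scaling 8116 differed (62.2%), 4446 higher in kidney (34.1%) and 3670 in pancreas (28.1%). The difference between kidney and pancreas was changed with the p53 KO label for 10995 genes as deposited (84.3%), with 190 up (1.46%) and 10805 down (82.8%). After scaling it was changed for 5861 (44.9%), with 2888 up and 2973 down. Of the genes higher in kidney after scaling, 3033 were also higher in i4F kidney, 70% of the 4331 in the groups labelled p53 KO and 71.2% of the 4262 in i4F. Of the genes higher in pancreas, 1941 were also higher in i4F pancreas, 50.5% of 3846 and 54.8% of 3543. The 2 comparisons share no library. In the proximal tubule list, 4 of 35 members were changed upward and 6 downward in the scaled fit, against 22.1% and 22.8% of all genes. Of 34 acinar members, 24 were changed upward, toward a smaller pancreas excess. Clps, the colipase, and Ctrl, a chymotrypsin, changed by 7.81 ± 1.95 and 8.57 ± 2.08 (SE, scaled), from 60495 to 78363 FPKM of Clps in i4F pancreas to 1298, 4229.6, 25046, 41700 and 121 FPKM in the pancreas labelled p53 KO. The calls of both as deposited were lost without kidney replicates 2, 3 and 4. All 25 mitosis genes were changed downward, toward pancreas, as were 13 of 16 epidermal and 21 of 31 collagen genes. Nccrp1, an F-box protein of squamous epithelium, and Ly6g6c, a GPI-anchored protein, had the largest such changes among protein-coding genes not listed at 0, -7.54 ± 0.75 and -6.07 ± 0.69 (SE, scaled). Ly6g6c measured 689, 607, 613, 186 and 692 FPKM in pancreas and 0.763, 0.109, 0.158, 0.185 and 5.40 FPKM in kidney, against 0.17 to 6.02 FPKM in i4F pancreas.

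Few genes changed the same way against i4F in both tissues. Against i4F, 54 genes were called in kidney (0.414%) and 11510 in pancreas (88.2%) as deposited, and 109 (0.835%) and 8009 (61.4%) after scaling. The kidney calls were 15 up (0.115%) and 39 down (0.299%) and the pancreas calls 11260 up (86.3%) and 250 down (1.92%) as deposited. After scaling they were 32 up (0.245%) and 77 down (0.59%), and 3924 up (30.1%) and 4085 down (31.3%). Both tissues were called in the same direction for 10 genes as deposited, 7 higher (0.0536%) and 3 lower (0.023%), and for 33 after scaling, 15 higher (0.115%) and 18 lower (0.138%). Those 33 are 30.3% of the kidney calls and 0.412% of the pancreas calls, and 9 more (0.069%) were called in opposite directions, against 6 (0.046%) as deposited. In all 42 of the 109 kidney genes were called in pancreas, 38.5% against 61.4% of all tested genes, so kidney calls were not called more often than other genes. The scaled counts moved from 5 to 37 higher and from 8 to 33 lower when single libraries were left out, with 5 higher without kidney p53 KO replicate 1 or 4 or kidney i4F replicate 2, 6 without kidney i4F replicate 3 or 5, and 37 without kidney p53 KO replicate 2.

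**Figure D4:**
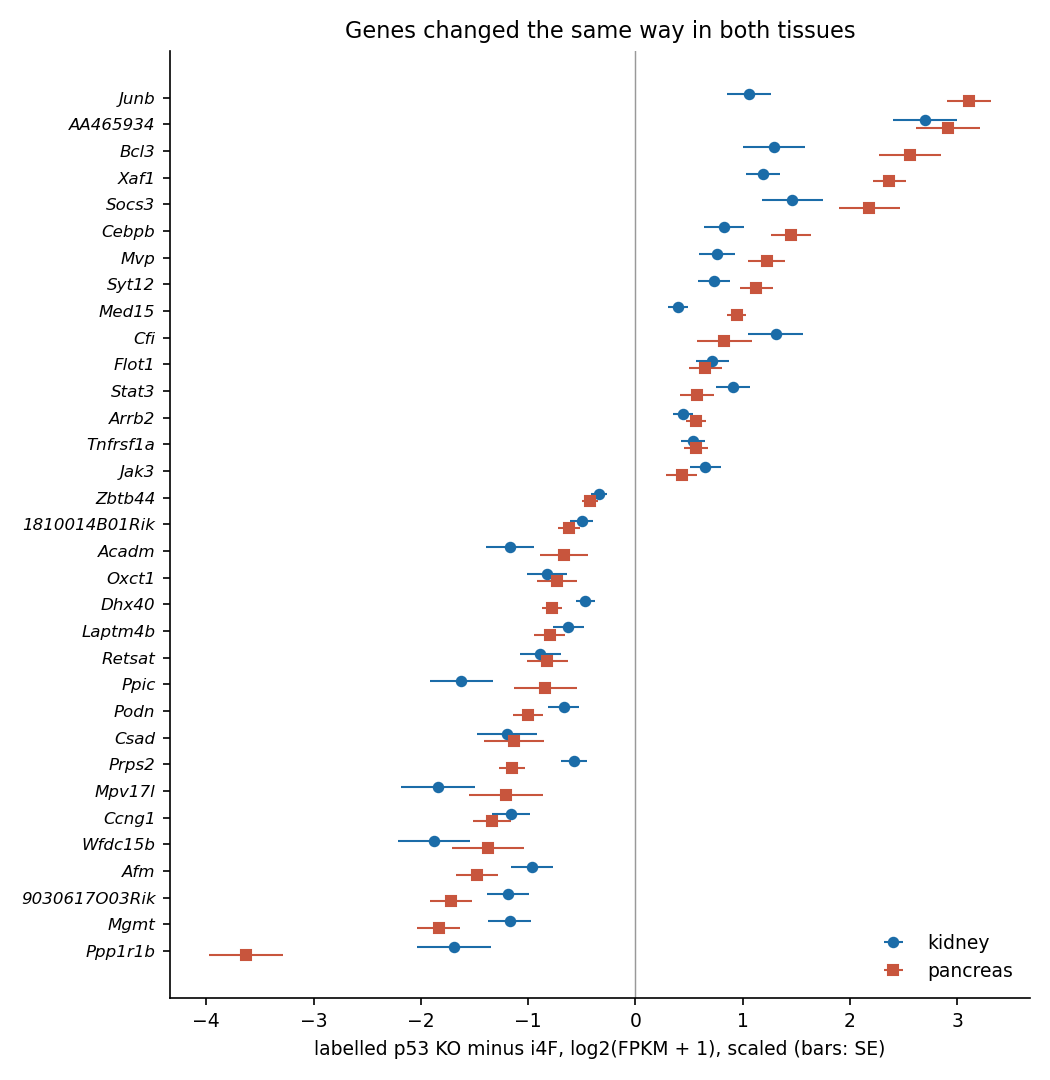
Change against i4F (log2, scaled, ± SE) in kidney and in pancreas for the 33 genes called the same way in both tissues. AA465934 lies farthest up in kidney, Junb farthest up in pancreas, and Ppp1r1b farthest down in pancreas.

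The risers called in both fits were AA465934, Socs3, Bcl3 and Cfi. AA465934, an RNA with no coding annotation, measured 27.4, 38.2, 15.2, 32.9 and 49.1 FPKM in kidney against 2.27 to 4.03 in i4F kidney, and 25.3, 19.8, 24.0, 4.63 and 19.8 FPKM in pancreas against 0 to 0.878 in i4F pancreas. Its scaled changes were 2.70 ± 0.30 and 2.91 ± 0.30 (SE), with limma adjusted p of 0.000381 and 2.18e-07, and it was called in all 20 fits that left out a library. Socs3, the feedback inhibitor that Stat3 induces, measured 15.0, 7.12, 2.81, 14.0 and 4.37 FPKM in kidney against 1.01 to 4.06, and 38.5, 33.6, 26.9, 19.2 and 46.3 FPKM in pancreas against 0.808 to 2.21. Its scaled changes were 1.46 ± 0.28 and 2.18 ± 0.28 (SE). Bcl3, an NF-kappa-B cofactor, changed by 1.29 ± 0.29 and 2.56 ± 0.29, and Cfi, a complement inhibitor, by 1.31 ± 0.26 and 0.83 ± 0.26. Stat3, Junb and Xaf1, called in both tissues after scaling only and named after their values were seen, rose by 0.91 ± 0.16, 1.06 ± 0.20 and 1.19 ± 0.16 in kidney and by 0.57 ± 0.16, 3.11 ± 0.20 and 2.37 ± 0.16 in pancreas. Junb is an AP-1 subunit and Xaf1 an interferon-induced promoter of cell death. These 3 and AA465934 were the risers called in all 20 scaled fits that left out a library. As deposited, the calls of Socs3, Bcl3 and Cfi held in 14, 14 and 15 of the 20 fits that left out a library, and after scaling in 17, 9 and 17. As deposited, all 3 were lost without kidney p53 KO replicate 1 or 4 or i4F kidney replicate 2 or 3. Other single losses as deposited were without p53 KO kidney 3 (Cfi), i4F kidney 1 (Socs3), 4 (Bcl3) and 5 (Socs3 and Bcl3). Between the tissues, Bcl3 differed by -0.87 ± 0.31 (SE, limma adjusted p = 0.0351), a call lost when any of 7 libraries was left out (kidney 2, 3 or 5, pancreas 1, 2, 3 or 5), with adjusted p from 0.0516 to 0.0982.

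The fallers called in both fits were Ppp1r1b, a phosphatase inhibitor, and Afm, a vitamin E binding protein. Ppp1r1b measured 5.62, 15.9, 4.08, 8.38 and 5.69 FPKM in kidney against 15.5 to 48.0 in i4F kidney, and 0.613, 1.74, 1.76, 1.84 and 0.372 FPKM in pancreas against 4.73 to 11.3. Afm was at 4.87 to 10.7 FPKM in kidney against 10.6 to 24.4, and under 1 FPKM in all pancreas libraries. The calls of Ppp1r1b and Afm as deposited held in 13 and 12 of 20 fits that left out a library, and after scaling in 16 and 15. Both were lost as deposited without kidney p53 KO replicate 1, 3, 4 or 5 and without i4F kidney replicate 3 or 5, Ppp1r1b also without i4F kidney 2, and Afm also without i4F kidney 4 or i4F pancreas 3. The kidney call of Afm was also lost with library totals without acinar genes (limma adjusted p = 0.0813). Ccng1, cyclin G1 and a known p53 target, fell after scaling, with log2 changes of -1.16 ± 0.18 in kidney and -1.33 ± 0.18 in pancreas (SE). It measured 20.4, 26.4, 21.3, 22.5 and 18.3 FPKM in kidney against 38.3 to 61.5 in i4F kidney, without overlap. In pancreas the direction hung on scaling, since as deposited it measured 16.3, 13.0, 9.45, 6.88 and 21.3 FPKM against 4.45 to 13.3 and changed by 0.61 ± 0.27 log2. Acadm, the medium-chain enzyme of fatty acid oxidation, fell after scaling, with changes of -1.17 ± 0.22 in kidney and -0.67 ± 0.22 in pancreas. Ccng1 and Acadm were called in all 20 scaled fits that left out a library, and Ccng1 was named after its values were seen.

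Of 32 of these 33 genes with a GENCODE position, 8 lie on chromosome 11 (25.0%), as against 1009 of the 11827 placed genes tested (8.53%). Chromosome 11 holds Trp53 itself (chr11:69580359-69591873). Arrb2 (chr11:70432635-70440828) starts 0.85 Mb from it and Xaf1 (chr11:72301629-72313733) 2.72 Mb. AA465934 (chr11:83291699-83294632) and Dhx40 start 13.71 and 17.19 Mb away, and Ppp1r1b, Ccng1, Stat3 and Socs3 from 28.77 to 48.39 Mb. These are positions only, and what joins them to the deletion was not tested.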

How the data were processed

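RNA-seq of whole kidney and pancreas was used as FPKM tables, 1 per tissue, joined on gene name. Per the submitters' processing notes, the tools were Cufflinks 2.2.1, SAMtools 0.1.19, TopHat2 2.0.10 with Bowtie 1.0.0, and FastQC, with mm10. The FPKM values are as the authors deposited them; how far each table was scaled on its own is not given in the sources used here. Names that a table lists more than once were left out, which kept 18862 names.

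Values were taken as log2(FPKM + 1), so folds of low genes are understated. Genes at 1 FPKM or more in at least 5 of the 10 libraries (of 20, where i4F groups entered) were fitted with limma 3.58.1 (R 4.3.3, trended empirical Bayes, Benjamini-Hochberg adjustment over all genes tested). The script was tested on simulated data. Shares of summed FPKM were compared by exact two-sided permutation. An exact 0 in an abundant gene can be a failed estimate, so nothing was read from Cela2a and Pnlip, listed at 0 in i4F pancreas, and small RNA genes are not discussed. Alternatives were other scalings, pseudocounts and filters, summed duplicate names, array weights, a replicate block and leaving out libraries.

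The gene lists (41 lists, 893 genes) and the groups were chosen with earlier results of these data known. Named genes are those of a fixed rule: p53, Cdkn1a, the factors and Il6, the 8 largest differences each way, up to 3 called and 3 like-level members of each list, the genes shared against i4F, and the largest changes of the tissue difference. Others are said to be named after their values were seen. Gene positions are GENCODE M21 on GRCm38. Promoter sequences are RefSeq's, on GRCm38.p6. Some single genes are not reported here.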

Additional observations from a re-analysis of the deposited data

Results flagged for a closer look

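In 12 of 226 groups of 5 examined, 1 library lay far from the other 4, where chance gives about 1 in 20. Of these, 7 were pancreas replicate 4, which had the highest acinar share (54.4%) and the lowest scaling factor (0.474). The groups were examined as deposited, and a low factor means lower values over the shared genes as a whole. Whether the values below stay apart after scaling was not tested. There Krt19 measured 243 FPKM against 737 to 914 in the others, Ly6g6c 186 against 607 to 692, and Nccrp1 141 against 439 to 648. Krt17 measured 12.8 FPKM against 120.5 to 200.3, Krt8 337 against 897 to 1060, and Bax 23.4 against 41.7 to 51.3. AA465934 measured 4.63 FPKM against 19.8 to 25.3. In pancreas replicate 5, with the lowest acinar share, Nr5a2 measured 1.88 FPKM against 3.61 to 4.48.

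In kidney replicate 5 Ly6g6c measured 5.40 FPKM against 0.109 to 0.763, and Pecam1 9.82 against 18.2 to 22.0. In kidney replicate 4 Pck1, an enzyme of glucose synthesis, measured 326 FPKM against 385 to 411, and Krt5 9.42 against 0 to 0.0200.

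The tissue difference differed between the libraries labelled i4F and those labelled p53 KO by limma's interaction test for 10995 genes as deposited and 5861 after scaling. As deposited, the log2 change of the kidney minus pancreas difference was 6.55 for Ctrl, 5.78 for Clps, 5.62 for Zg16, a zymogen granule lectin, and 5.52 for Cel, a lipase. For Nccrp1 it was -9.05 and for Ly6g6c -7.43. The 4 acinar calls were lost without kidney replicates 2, 3 and 4.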

How the results depend on the processing

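The 5466 genes called between the tissues became 8364 (3909 higher in kidney) with quantile normalization and 2020 without kidney replicates 2, 3 and 4, and 4129 to 6721 when 1 library was left out. The 4084 like-level genes became 2630 with a pseudocount of 0.1, 2656 with a filter of 5 FPKM (fewer genes tested) and 513 without those 3 kidneys, and 3262 to 5099 with 1 library left out. The 10995 changes of the tissue difference became 5861 with median-of-ratios scaling, 4641 with library totals without acinar genes and 5996 with quantile normalization, and 10346 to 11294 with 1 library left out. The 10 genes shared against i4F became 33, 36 with quantile normalization, 26 without the 3 kidneys, 1559 with array weights (whose fit did not converge), and 2 to 19 with 1 library left out. The acinar share difference was -29.58 to -16.31 points with 1 library left out, where the exact permutation p was 0.0556 without any 1 kidney, and -23.97 (exact permutation p = 0.143) without 3. The tubule share difference was 5.312 to 7.197. In each case where no cause is named, the cause was not tested.

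The pancreas change of Ccng1 reversed, to -1.33 with scaling, -0.67 with totals without acinar genes and -1.30 with quantile normalization, and the tissue difference of Spink3 reversed to -0.86 without pancreas replicate 5, against 0.6229 without replicate 4. Of 1012 tissue differences of 94 genes under other settings, 1000 kept direction and call and 12 lost the call. Of 140 like-level values of 13 genes 25 lost the call, with each gene losing it under at least 1 setting, and of 110 kidney changes of 10 genes 8 did. The deviations of same-numbered kidney and pancreas libraries correlated at -0.0674 to 0.141, which cannot show whether they came from the same mouse. With the replicate block the counts were 5390, 4006, 11048 and 10. Depth limits low genes, but its size is unknown here.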

Other observations

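Gene groups not described above also differed. All 32 cytosolic ribosomal protein genes were tested, and 28 were higher in pancreas as deposited and 31 after scaling, none in kidney, with a median difference of -0.90. Rps3, a protein of the small subunit, measured 562, 429, 411, 284 and 579 FPKM in pancreas and 235, 172, 149.5, 222 and 199.6 FPKM in kidney, -1.18 ± 0.26 (SE). In i4F mice 8 were higher in pancreas and 3 in kidney as deposited, with a median of -0.03. After scaling all 32 were higher in pancreas there, with a median of -2.20, against -0.99 in the groups labelled p53 KO. The direction of the change against i4F thus hung on scaling. The tissue difference was changed downward for 25 genes as deposited and upward for 32 after scaling. Without kidney replicates 2, 3 and 4, the median was -0.68 and 0 of the 32 were called by limma as deposited (1 at an unadjusted p under 0.05) and 2 after scaling.

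Claudins, the sealing proteins between epithelial cells, went both ways. Of 22 claudin and tight junction genes 8 were higher in kidney and 10 in pancreas as deposited, against 25.9% and 17.6% of all tested genes. Of the 22, 2 reached 1 FPKM in kidney alone and 2 in pancreas alone. Cldn2, the leaky claudin of the proximal tubule, measured 169, 209, 180.4, 201 and 138 FPKM in kidney and 16.5, 19.3, 5.69, 2.89 and 23.6 FPKM in pancreas, 3.92 ± 0.45 (SE). Every kidney exceeded every pancreas library, yet Cldn2 was at 0.0674 to 0.438 FPKM in i4F pancreas, below all 5 pancreas libraries labelled p53 KO. Igfbp5, which binds insulin-like growth factors, was at 26.8 to 99.8 FPKM in kidney and 0.826 to 4.85 FPKM in pancreas. Asns, the asparagine synthetase of the amino acid stress response, was at 62.0 to 95.6 FPKM in pancreas and 1.83 to 18.6 FPKM in kidney, and at 71.8 to 121 FPKM in i4F pancreas. Saa3, an acute phase protein, was at 55.4 to 1295 FPKM in pancreas and 0.406 to 58.3 FPKM in kidney, with kidney replicate 1 above the lowest pancreas library.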
